A study of Mus musculus with 2 samples.

Results

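The genes described here are 33 genes of cholesterol and fatty acid synthesis and of sterol transport, taken by symbol from the 24421 genes listed in each of the 2 deposited tables. The tables hold RNA sequencing of Th1 cells, which are helper T cells made in culture from naïve CD4 T cells and which secrete IFNγ. One library is labelled WT Th1 (genotype Chi3l1+/+) and the other Chi3l1 KO Th1 (genotype Chi3l1-/-), and the study compared them to learn which genes depend on chitinase 3-like 1 (Chi3l1) in these cells. Both are on the C57BL/6J background, from mice that were 6 to 8 weeks old, and both cultures were activated with anti-CD3 and anti-CD28 antibodies and skewed with IL-12, IL-2 and an antibody to IL-4 for 3 or 5 days. The labelled genotype is that of the whole mouse and not of T cells alone, and the sources used here do not say whether 1 mouse or a pool gave each RNA. There is 1 library of each genotype (n = 1), so no difference below has a replicate check and none was tested between genotypes.

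Cells make cholesterol from acetyl-CoA through mevalonate, farnesyl diphosphate, squalene and lanosterol, and make fatty acids from the same acetyl-CoA through malonyl-CoA and palmitate. Both routes are switched on by the SREBP transcription factors, which are held in the endoplasmic reticulum by the INSIG proteins when sterols are plentiful and are carried by SCAP to the Golgi, where proteases release them, when sterols are scarce. Activated T cells are known to raise this program when they grow and divide, because new membrane has to be built.

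The targeted gene was read first, because it bears on the labels. Chi3l1, listed as Chil1, had a log2 value of 0.94 (about 1 read) in the library labelled WT and 6.66 (about 103 reads) in the library labelled KO, which is against the direction of the label. The values are per gene and do not show which part of Chil1 was read, so they alone do not settle the labels. An exchange of the labels would turn every sign given below, and whether one took place was not tested. The libraries are therefore named by their labels, and every direction below is that of the library labelled KO relative to the library labelled WT. All 4 T cell markers were high in both, with log2 values from 13.60 for Cd3g to 16.49 for Lck in the library labelled WT and from 13.31 to 16.48 in the library labelled KO. Of the Th1 markers, Tbx21 had log2 values of 13.98 and 13.72 and Ifng 11.72 and 13.04, in the same order. Cxcr3 had 8.05 and 6.82 (about 273 and 116 reads) and Il12rb2 13.90 and 14.35, so 2 of the 4 were higher and 2 lower in the library labelled KO. The summed normalized counts of the 5 macrophage and monocyte markers were 517 and 488, those of the 4 dendritic cell markers 73.6 and 121.9, and those of the 3 listed neutrophil markers 50.4 and 4.8, against 156104 and 147381 for the 4 T cell markers. The ribosomal RNA precursor Rn45s, a sign of how much ribosomal RNA was left in a library, had about 1999809 and 629857 reads. Rebuilt reads summed to 70638495 in the library labelled WT and 62958938 in the library labelled KO, and the 33 genes took 0.523% and 0.559% of them. In a bulk sample, fewer cells of a type and less RNA per cell cannot be told apart.

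None of the 33 genes differed by 2-fold between the libraries. The largest difference was in Abca1, a pump that exports cholesterol from the cell, at 1.74-fold higher in the library labelled KO. The factors Srebf1 and Srebf2 and the fatty acid synthase Fasn were lower by 1.37-fold, 1.36-fold and 1.39-fold. The genes of the synthesis route did not lie on one side, as 10 of the 17 enzymes from mevalonate to cholesterol were higher and 7 lower.

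The difference given for each gene is the deposited log2 value of the library labelled KO minus that of the library labelled WT. Across all listed genes 4.7% were at least 2-fold higher and 5.81% at least 2-fold lower, and 0 of the 33 genes were in either class. At a threshold of 1.5-fold, 9.6% of all genes were higher and 11.4% lower, against 1 and 0 of the 33 genes. Much of that background comes from genes with few reads, and 32 of the 33 genes reached a log2 value of 8 in each library (called well expressed below). Of the 8886 genes at that level, 0.461% were at least 2-fold higher, 0.743% at least 2-fold lower, 3.95% at least 1.5-fold higher and 6.29% at least 1.5-fold lower. None of the 32 genes was past 1.5-fold in either direction. With 32 genes, these shares leave room for few or no genes past either line.

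The median log2 fold change of the 33 genes was 0.012, with 18 genes above 0 and 15 below, and the range ran from -0.47 for Fasn to 0.80 for Abca1. The median of all 24421 genes was 0, and that of the 8886 well expressed genes was -0.011. The SD of the log2 fold change was 0.27 across the 32 well expressed members and 0.37 across the 8886 genes. Genes are not replicates, so these spreads only describe the 2 libraries. As an error for each gene, a 95% exact binomial (Clopper-Pearson) interval was taken from the rebuilt reads, and it covers counting error only. This interval held 0 for 4 genes, was above 0 for 15 and was below 0 for 14. For most of the 33 genes the reads of these 2 libraries thus differ by more than counting error, while the spread between cultures is unknown. The share of all well expressed genes whose interval leaves out 0 was not counted, so these counts set the 33 genes apart from no others. The interval also takes the scaling of the deposited values as exact.

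**Figure D1:**
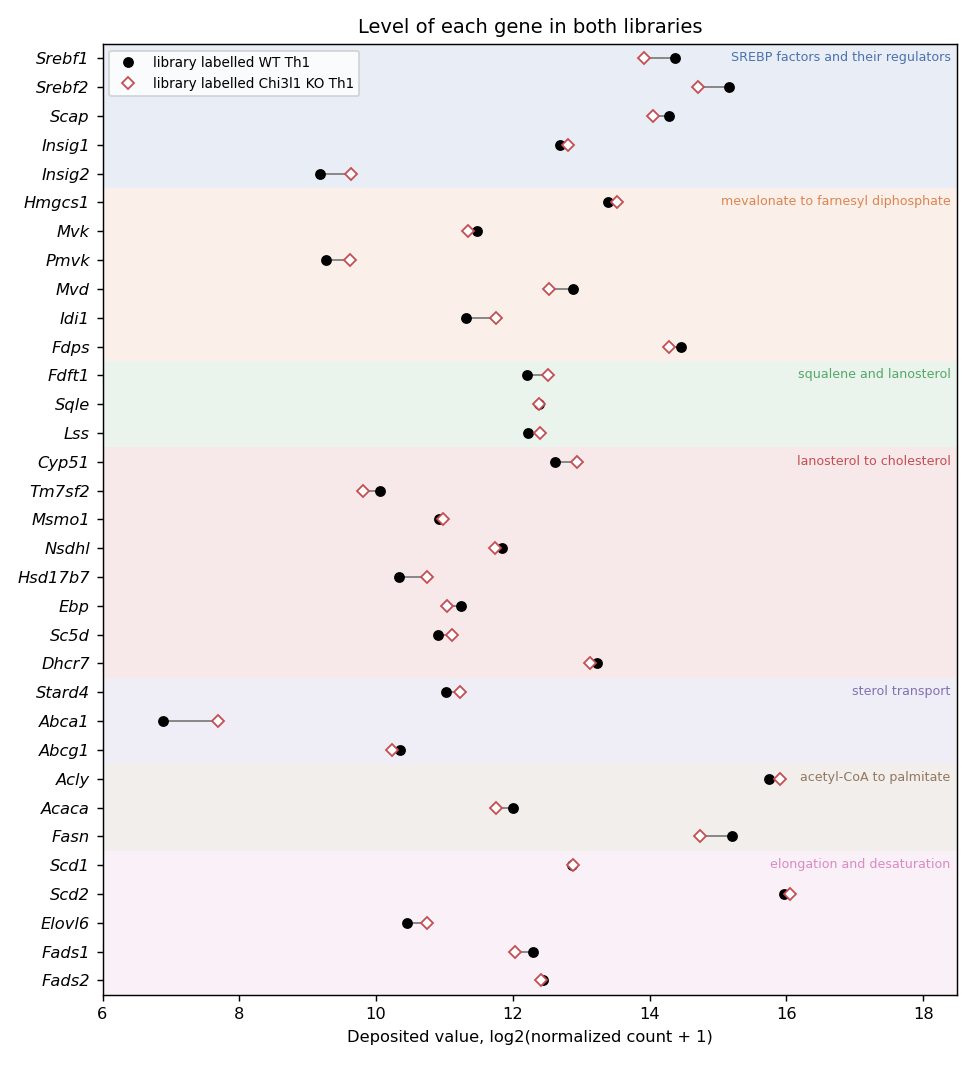
Deposited log2(normalized count + 1) of each of the 33 genes (x axis), in pathway order from top to bottom, in the library labelled WT Th1 (black circles) and the library labelled Chi3l1 KO Th1 (open diamonds), 1 library each. The pairs of points lie close together for all genes, the widest gap is that of Abca1 (6.89 and 7.68), and Abca1 is also the only gene under a log2 value of 8.

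Between genes, levels were compared as normalized counts per kilobase of the longest coding transcript. Farnesyl diphosphate synthase (Fdps) was the highest in both libraries, at 16329 per kilobase in the library labelled WT and 14374 in the library labelled KO. Fdps is uncertain, because 86.4% of the stretches of 50 bases in its transcript also occur in transcripts of other annotated genes and reads with several alignments were counted. ATP-citrate lyase (Acly), which makes cytosolic acetyl-CoA for both routes, followed with 12434 and 13931 per kilobase, and the desaturase Scd2 with 11661 and 12489. Srebf2 was the fourth in both libraries, with 7186 and 5271. At the other end Abca1 had 11.4 and 19.9 per kilobase, the lowest of all 33 genes, with Insig2 next in the library labelled WT and Abcg1 in the library labelled KO. The same 4 genes thus led in both libraries. The largest move in rank was by 5 places, by Fdft1, which was number 20 in the library labelled WT and number 15 in the library labelled KO.

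**Figure D2:**
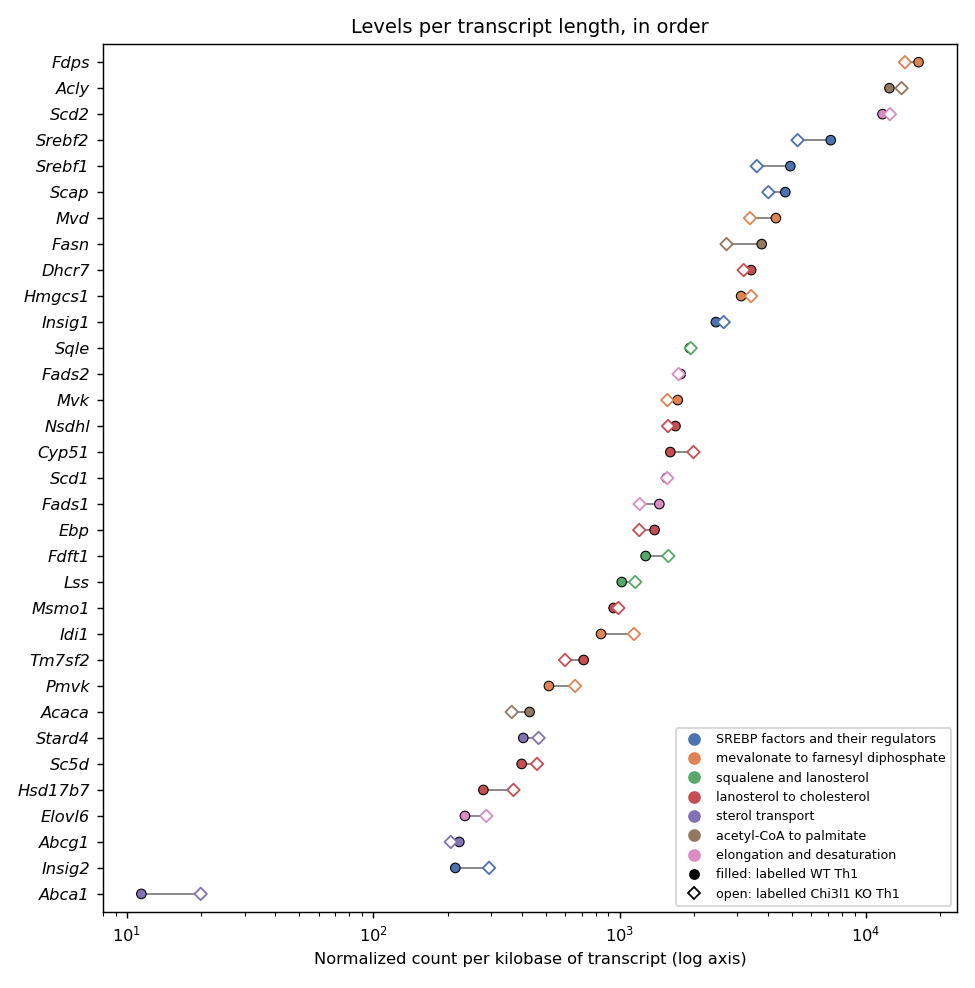
Normalized counts per kilobase of transcript (x axis, log scale) of the 33 genes, ordered by the library labelled WT Th1 (filled circles), with the library labelled Chi3l1 KO Th1 as open diamonds and the pathway step as colour. Fdps, Acly and Scd2 stand at the top in both libraries, and Abca1 stands apart at the bottom with 11.4 and 19.9.

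Taken by step, the 6 genes from mevalonate to farnesyl diphosphate held 28.3% of the summed per-kilobase level of the 33 genes in the library labelled WT and 27.1% in the library labelled KO. Fdps, whose level is uncertain, gave 16329 of the 26818.5 per kilobase of that step in the library labelled WT. In the library labelled KO it gave 14374 of 24527.2. All shares by step rest on a total that includes Fdps. The 5 genes of the SREBP machinery held 20.5% and 17.5%. The 3 genes from acetyl-CoA to palmitate held 17.5% and 18.8%, and the 5 genes of elongation and desaturation 17.6% and 19.1%. The 8 genes from lanosterol to cholesterol held 10.99% and 11.5%, the 3 genes of squalene and lanosterol 4.45% and 5.17%, and the 3 genes of sterol transport 0.68% and 0.77%.

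Among the SREBP factors, Srebf1, which encodes the form that mainly drives fatty acid genes, was at a log2 value of 14.37 in the library labelled WT and 13.92 in the library labelled KO. Srebf1 lies on chromosome 11 from 60199089 to 60222581 (GRCm38, minus strand). Its log2 fold change was -0.45 (counting interval -0.48 to -0.42). Srebf2, which encodes the form that mainly drives cholesterol genes, was at 15.16 and 14.71, a log2 fold change of -0.45 (counting interval -0.47 to -0.42). It lies on chromosome 15 from 82147181 to 82205379 on the plus strand. Both factors were thus lower by nearly the same amount, and the ratio of Srebf2 to Srebf1 per kilobase was 1.46 in each library. Differences of this size were not rare, as 20.5% of the well expressed genes differed by as much as Srebf2 in either direction.

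The partners of the factors had smaller or opposite differences as deposited. Scap, the escort that carries SREBP to the Golgi, was at 14.28 and 14.05, a log2 fold change of -0.23, which turned to 0.12 once the trend with GC content, described below, was subtracted. Insig1, the retention protein that is itself a target of SREBP, was at 12.69 and 12.80, a log2 fold change of 0.10 (counting interval 0.057 to 0.15). Insig2, the second retention protein, was at 9.18 and 9.64, a log2 fold change of 0.45 (counting interval 0.30 to 0.61). Insig1 therefore stood 11.4 times above Insig2 per kilobase in the library labelled WT and 8.96 times above it in the library labelled KO.

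Windows from 250 bases before to 50 bases after the start of transcription were available for 25 of the 33 genes (RefSeq, GRCm38.p6), and they are shown for 4 genes. Hmgcs1 was chosen because it was the only one with the full 9-base sterol regulatory element core, Insig1 as the SREBP target that feeds back on the factors, Srebf2 as a factor that was lower, and Abca1 as the gene with the largest difference. Capitals mark matches on either strand to TCACNCCAC or its shorter form TCACNCCA (sterol regulatory element core), CACGTG (E-box), GGGCGG (GC box) and the CCAAT box, named by its letters. The windows are chr13:119690101-119690400 on the plus strand for Hmgcs1, chr5:28071162-28071461 on the plus strand for Insig1, chr15:82147019-82147318 on the plus strand for Srebf2 and chr4:53159846-53160145 on the minus strand for Abca1.
Hmgcs1: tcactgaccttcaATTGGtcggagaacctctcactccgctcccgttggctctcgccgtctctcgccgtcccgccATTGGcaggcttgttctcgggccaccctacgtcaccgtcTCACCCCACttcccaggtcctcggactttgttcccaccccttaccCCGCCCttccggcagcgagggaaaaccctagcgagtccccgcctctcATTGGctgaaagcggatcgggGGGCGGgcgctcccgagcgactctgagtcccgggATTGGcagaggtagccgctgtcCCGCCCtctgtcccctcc
Insig1: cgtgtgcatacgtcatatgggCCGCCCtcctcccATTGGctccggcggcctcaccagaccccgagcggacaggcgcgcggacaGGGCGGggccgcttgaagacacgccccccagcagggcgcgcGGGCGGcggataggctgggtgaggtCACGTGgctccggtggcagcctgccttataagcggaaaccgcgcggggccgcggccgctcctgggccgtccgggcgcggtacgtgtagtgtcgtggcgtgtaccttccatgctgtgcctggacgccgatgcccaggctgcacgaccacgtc
Srebf2: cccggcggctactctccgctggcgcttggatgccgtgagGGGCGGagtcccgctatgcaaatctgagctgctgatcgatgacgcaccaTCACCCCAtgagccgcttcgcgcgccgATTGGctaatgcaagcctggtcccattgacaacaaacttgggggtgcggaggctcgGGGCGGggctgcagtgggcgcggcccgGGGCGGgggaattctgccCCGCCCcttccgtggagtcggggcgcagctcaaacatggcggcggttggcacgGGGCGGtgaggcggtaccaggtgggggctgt
Abca1: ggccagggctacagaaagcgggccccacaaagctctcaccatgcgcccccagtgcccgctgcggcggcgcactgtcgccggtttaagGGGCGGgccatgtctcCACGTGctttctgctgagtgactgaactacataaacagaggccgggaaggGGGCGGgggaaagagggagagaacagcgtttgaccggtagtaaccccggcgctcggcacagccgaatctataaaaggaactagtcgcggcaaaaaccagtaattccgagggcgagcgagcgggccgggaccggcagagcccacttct

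The 9-base core was found in 1 of the 25 genes (4.0%) and in 1.44% of all 27025 genes with such windows, and in Hmgcs1 its first base was at -137 from the start. The shorter form, searched after the windows had been read and overlapping the longer one, was found in Hmgcs1, Msmo1 and Srebf2 (12%, against 4.97% of all genes). The CCAAT box was found in 20 of the 25 genes (80.0%, against 41.1% of all genes) and the GC box in 21 (84.0%, against 38.2%). The E-box was found in 6 genes, namely Abca1, Dhcr7, Hsd17b7, Insig1, Sc5d and Scap (24%, against 8.09%). All genes here are those with a window, expressed or not, while most members are well expressed. A gene counted if any of its windows matched, and there were 33 windows for the 25 members and 32851 for the 27025 genes. A match describes these letters only. Genes with and without the E-box lay on both sides of 0, with Hsd17b7 at a log2 fold change of 0.41 and Scap at -0.23.

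In the first part of the cholesterol route, Hmgcs1, the synthase that makes HMG-CoA, was at a log2 value of 13.40 in the library labelled WT and 13.53 in the library labelled KO. Mvk, mevalonate kinase, was at 11.48 and 11.34. Pmvk, the next kinase, was at 9.27 and 9.62. These 3 consecutive genes had log2 fold changes of 0.13, -0.14 and 0.35 as deposited, and -0.060, 0.23 and 0.60 with the GC trend subtracted, so Hmgcs1 and Mvk each turned sign. Mvd, the decarboxylase that makes isopentenyl diphosphate, was at 12.88 and 12.54, a log2 fold change of -0.35 that went to 0.006 on the GC-subtracted scale. Idi1, the isomerase of that product (chromosome 13, 8885501 to 8892451), was at 11.31 and 11.76, a log2 fold change of 0.44 (counting interval 0.37 to 0.52). Of its 50-base stretches, 30.5% also occur in transcripts of other genes, which makes its reads uncertain. Fdps was at 14.46 and 14.28, a log2 fold change of -0.18. With 3 genes higher and 3 lower, the median of this step was -0.003.

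The 3 genes from farnesyl diphosphate to lanosterol all had log2 fold changes above 0, that of Sqle within counting error. Fdft1, squalene synthase, was at 12.20 in the library labelled WT and 12.51 in the library labelled KO, a log2 fold change of 0.31. Other genes share 30.7% of its 50-base stretches. Sqle, the epoxidase that is a rate-limiting enzyme of the sterol branch, was at 12.38 and 12.39, a log2 fold change of 0.012 (counting interval -0.042 to 0.066). Lss, which closes the rings of lanosterol, was at 12.22 and 12.40, a log2 fold change of 0.18. Sqle did not differ beyond counting error, while the genes on either side of it were slightly higher in the library labelled KO.

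The 8 enzymes that turn lanosterol into cholesterol were divided, with 4 higher and 4 lower and a median of -0.018. Cyp51, the lanosterol demethylase, was at 12.62 and 12.94, a log2 fold change of 0.31. Hsd17b7, a sterol ketone reductase (chromosome 1, 169949535 to 169969241), was at 10.33 and 10.74, a log2 fold change of 0.41 (counting interval 0.30 to 0.51). Sc5d, a sterol desaturase, was at 10.90 and 11.11, and Msmo1, the methylsterol oxidase, at 10.92 and 10.98. Those 4 were the higher ones, and the interval of Msmo1 held 0. Tm7sf2, a sterol reductase, was at 10.06 and 9.81, a log2 fold change of -0.25. Ebp, the sterol isomerase, was at 11.24 and 11.03, a log2 fold change of -0.21. Nsdhl, a sterol dehydrogenase, and Dhcr7, the reductase that gives cholesterol, were at 11.83 and 11.73 and at 13.23 and 13.13, and each had a log2 fold change of -0.10.

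**Figure D3:**
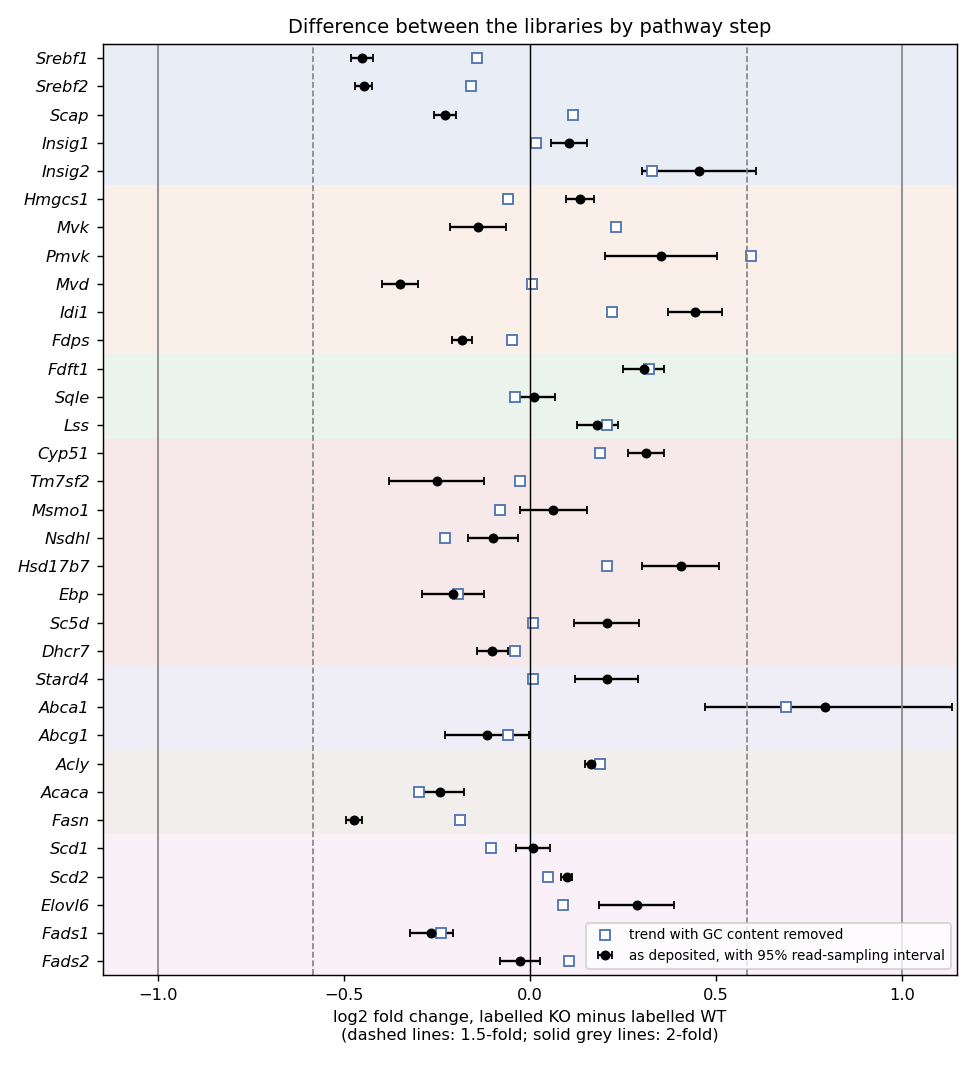
Log2 fold change of each gene, library labelled Chi3l1 KO Th1 minus library labelled WT Th1 (x axis), by pathway step, as deposited (black, bars are the 95% exact binomial interval for counting error) and after subtraction of the GC trend (open squares). No black point reaches the solid lines at 2-fold and only Abca1 (0.80) passes the dashed lines at 1.5-fold, while the squares of Srebf1, Srebf2 and Fasn lie much nearer to 0.

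Among the transport genes, Abca1 (chromosome 4, 53030787 to 53159895, minus strand) was at a log2 value of 6.89 in the library labelled WT and 7.68 in the library labelled KO, from about 121 and 211 reads. The log2 fold change was 0.80, and its counting interval was wide, at 0.47 to 1.13. Abcg1, a second export pump, was at 10.35 and 10.23, a log2 fold change of -0.12 (counting interval -0.23 to -0.0026). As deposited the pumps differed in direction, and Abcg1 stood 19.5 times above Abca1 per kilobase in the library labelled WT and 10.4 times above it in the library labelled KO. Stard4, a carrier of sterol inside the cell, was at 11.02 and 11.22, a log2 fold change of 0.21.

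Abca1 is also made by macrophages and other myeloid cells, and some of their markers moved between these libraries. The cultures were started from naïve CD4 T cells. For such cells the study's methods give magnetic isolation as CD4+CD25-CD62L+ and also cell sorting, and its RNA-sequencing methods name neither. Of the 5 macrophage and monocyte markers, Csf1r had about 97 and 174 reads and Mrc1 0 and 29, Lyz2 had 34 and 2 and Cd68 402 and 299, and Adgre1 was at 0 in both. Of the dendritic cell markers, Flt3 had about 18 and 68 reads, Zbtb46 14 and 48 and Xcr1 0 and 5, while Itgax had 44 and 5. Of the B cell markers, Cd79a had about 267 and 476 reads and Ms4a1 61 and 120, both higher in the library labelled KO. The part of such cells in the difference of Abca1 was not tested.

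Of the 3 genes from acetyl-CoA to palmitate, 1 was higher and 2 were lower. Acly was at a log2 value of 15.75 in the library labelled WT and 15.91 in the library labelled KO, a log2 fold change of 0.16. Acaca, the carboxylase that makes malonyl-CoA, was at 12.001 and 11.76, a log2 fold change of -0.24, with 52.6% of its 50-base stretches shared with another annotated gene. Fasn, the synthase that builds palmitate (chromosome 11, 120805846 to 120824547), was at 15.21 and 14.74. Its log2 fold change of -0.47 (counting interval -0.50 to -0.45) was the lowest of the 33 genes, and 17.9% of well expressed genes differed by as much.

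The genes that lengthen and desaturate fatty acids differed little. Scd2, a stearoyl-CoA desaturase, was at 15.96 and 16.06, a log2 fold change of 0.099. Scd1, its neighbour on chromosome 19, was at 12.87 and 12.88, a log2 fold change of 0.008 (counting interval -0.038 to 0.054). Scd2 stood 7.52 times above Scd1 per kilobase in the library labelled WT and 8.01 times above it in the library labelled KO, and 4.01% and 4.66% of their 50-base stretches are shared with other genes, each other included. Elovl6, which lengthens palmitate, was at 10.45 and 10.74, a log2 fold change of 0.29. Fads1 and Fads2 desaturate polyunsaturated fatty acids. Fads1 was at 12.29 and 12.03, a log2 fold change of -0.27, and Fads2 was at 12.44 and 12.42, a log2 fold change of -0.027 (counting interval -0.080 to 0.026). Scd1, Fads2, Sqle and Msmo1 were the 4 genes whose counting interval held 0.

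The GC content of the transcripts moved with the differences. The 11 members with the lowest GC content (41.9% to 47.1%) included 10 that were higher in the library labelled KO, with a median log2 fold change of 0.21. The 11 members with the highest GC content (52.8% to 59.6%) included 1 that was higher, Pmvk, with a median of -0.23. Over the 33 genes, log2 fold change and GC content had a Spearman rho of -0.68, and over 8579 well expressed genes with a transcript the rho was -0.54. These points all come from the same 2 libraries and describe them only. Srebf1, Srebf2 and Fasn had 58.4%, 57.9% and 57.9% GC, and well expressed genes of such GC content had median log2 fold changes of -0.31, -0.29 and -0.29. With the median trend over GC content subtracted, Srebf1 was at -0.14, Srebf2 at -0.16 and Fasn at -0.19. Idi1, with 41.9% GC, went from 0.44 to 0.22, and Insig2 from 0.45 to 0.33.

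**Figure D4:**
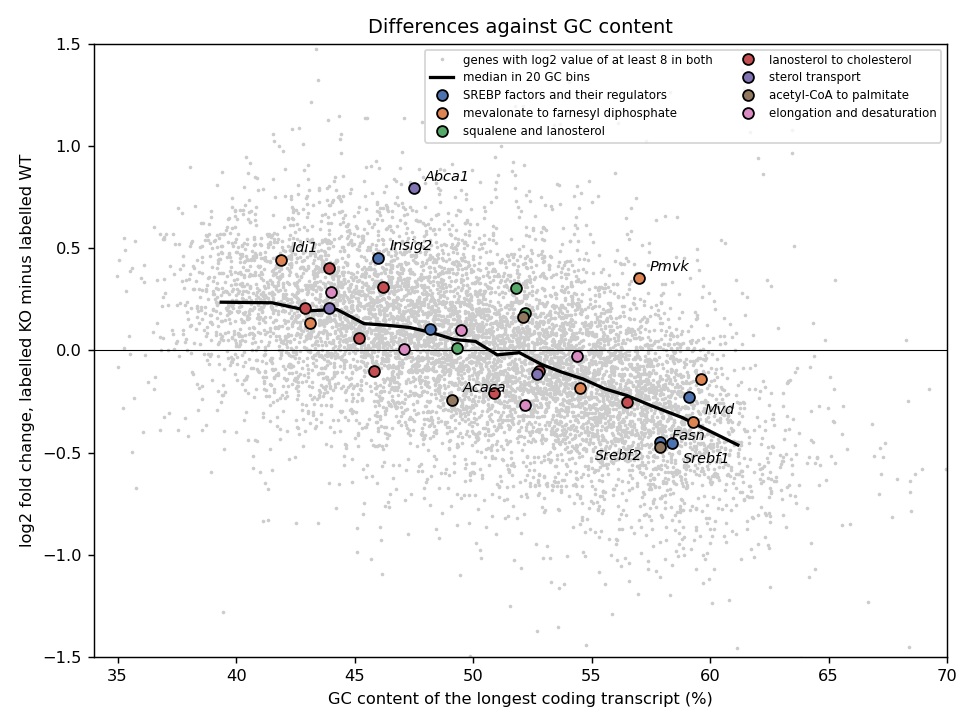
Log2 fold change, library labelled Chi3l1 KO Th1 minus library labelled WT Th1 (y axis), against GC content of the longest coding transcript in percent (x axis), for the well expressed genes that reach a log2 value of 8 in each library (grey, 15 genes lie outside the plotted range), their median in 20 GC bins (black line) and the 33 genes coloured by step. Mvd sits on the line at its low right end, with Srebf1, Srebf2 and Fasn 0.14 to 0.19 below it, while Abca1 and Pmvk lie well above it.

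With the trend removed, 8 of the 33 genes had the opposite sign, 18 were above 0 as before, and 4 differed from 0 by more than 0.3 on the log2 scale. These were Abca1 (0.69), Pmvk (0.60), Insig2 (0.33) and Fdft1 (0.32), all higher in the library labelled KO. Pmvk, with 57.0% GC, was past 1.5-fold on this scale only. Of the 8579 well expressed genes with a transcript, 243 were at least 1.5-fold higher and 279 at least 1.5-fold lower on this scale. The lowest value of the 33 genes was then that of Acaca, at -0.298, just inside the bound of 0.3. The shares of well expressed genes that turned sign or lay past 0.3 on this scale were not counted. Neither count therefore sets the 33 genes apart from others. The rho of the 33 genes with GC content was -0.079 after the subtraction, and the SD across the 32 well expressed members was 0.19, against 0.32 across well expressed genes.

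Of the 33 genes, 22 kept their sign under all 5 other scalings, namely a smaller pseudocount, scaling to Actb, quantile or median-ratio normalization and removal of the GC trend. The 14 that were higher in each were Insig1, Insig2, Pmvk, Idi1, Fdft1, Lss, Cyp51, Hsd17b7, Sc5d, Stard4, Abca1, Acly, Scd2 and Elovl6. The 8 that were lower in each were Srebf1, Srebf2, Fdps, Tm7sf2, Ebp, Acaca, Fasn and Fads1. The share of well expressed genes that kept their sign under all 5 scalings was not counted. The 22 therefore set the 33 genes apart from no others. Among the higher ones Sc5d and Stard4 went from 0.21 to 0.008 and Insig1 from 0.10 to 0.017 with the GC trend removed, which is close to 0. With that trend removed Scap, Hmgcs1, Mvk, Mvd, Sqle, Msmo1, Scd1 and Fads2 turned sign. Nsdhl, Dhcr7 and Abcg1 turned only when scaled to Actb, which moves all genes up by 0.116 alike and so is no property of these 3 genes. The smaller pseudocount and median-ratio normalization moved no member by more than 0.0047. The smallest difference of a member was 0.008 (Scd1), so those scalings could turn no sign and a kept sign under them is no check.

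A list of 29 other genes of the same pathways was read beside these, of which 28 were listed in the tables. Of those, 13 were higher in the library labelled KO, 14 lower and 1 was at 0 in both, and the median was -0.004. At 1.5-fold, 3 were higher (9.6% of all genes) and 1 lower (11.4% of all genes). Erlin1, a protein of the endoplasmic reticulum that binds cholesterol, was at a log2 value of 9.90 in the library labelled WT and 10.62 in the library labelled KO, a log2 fold change of 0.71 (counting interval 0.60 to 0.83). Acacb, the mitochondrial acetyl-CoA carboxylase, was at 4.20 and 5.31, from about 18 and 40 reads. Ch25h, which makes the oxysterol that holds SREBP back, was at 4.91 and 2.54, from about 30 and 5 reads, which is a log2 fold change of -2.38 (counting interval -4.31 to -1.21). Cyp27a1, the third of the higher genes, had 0 and 1 read. Erlin1 was thus the one well expressed gene of this list past 1.5-fold on the deposited scale. With the GC trend removed Erlin1 was at 0.59 and Abca7, a transporter, at 0.78, both past that line.

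Of the 4 listed genes that supply citrate, acetyl-CoA and NADPH to both routes, 3 were lower and 1, Me1, was higher (about 69 and 102 reads). Slc25a1, the mitochondrial citrate carrier, was at 13.25 and 12.68, a log2 fold change of -0.57 that became -0.23 with the GC trend removed. Acss2, the cytosolic acetyl-CoA synthetase, was at 10.55 and 10.00, a log2 fold change of -0.55 that became -0.51. Of the sterol-sensing LXR receptors, Nr1h2 was at 15.29 and 14.99, a log2 fold change of -0.30 that turned to 0.13 with the GC trend removed, and Nr1h3 at 6.24 and 6.76, from about 77 and 111 reads of Nr1h3. Mylip, an LXR target as Abca1 is, was at 7.48 and 7.86, a log2 fold change of 0.38 (counting interval 0.093 to 0.66). Abca7 was at 12.27 and 12.72, a log2 fold change of 0.45. Abcg1, another LXR target, was at -0.12 as deposited, -0.058 with the GC trend removed and 0.0009 when scaled to Actb.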

How the data were processed

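Per the labels and the study's methods, poly(A) RNA libraries were made with the SENSE mRNA-Seq kit and sequenced from both ends, reads were mapped with TopHat to mm10, and the authors counted reads with unique or multiple alignments and used edgeR. The annotation is not given in the sources used here. The deposited values are log2 of a normalized count plus 1, a unit inferred from the values: once the log is undone, low values lie on whole multiples of 1 read, worth 0.969 in the library labelled WT and 0.968 in the library labelled KO (a value within 0.1 of a whole number for 99.9% and 100.0% of values under 60). A single read was worth 0.921 to 0.957 and 0.917 to 0.955, so rebuilt reads are approximate. For 3 reads, log2 is 1.97 and 1.96.

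Members were found by symbol, and members and lists were chosen with earlier results of these data known. Named genes are all members, other pathway genes past 1.5-fold that reach a log2 value of 4 in a library, and defining markers, of which 1 is not reported here. Slc25a1, Acss2, Me1, Nr1h2, Nr1h3, Mylip, Abca7 and Cyp27a1 were named after their values were seen. No test between genotypes was run. GC content, length and coordinates come from GENCODE M21 (GRCm38, the assembly of mm10), longest coding transcript, found for 96.5% of well expressed genes, and the GC trend is the median in 20 bins. Shared stretches are 50-base runs in transcripts of any other gene, both strands. PCR duplicates are not separable, so intervals cover counting error only. Scripts were tested on simulated data. Computation used scipy 1.17.1 and pandas 2.3.3 with numpy 2.4.6 under Python 3.11.15, and figures matplotlib 3.10.9. Alternatives were a pseudocount of 0.1, scaling to Actb, quantile or median-ratio normalization, removal of the GC trend, thresholds of 1.5-fold and 3-fold, and the floor of 8.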

Additional observations from a re-analysis of the deposited data

How the results depend on the processing

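With 1 library per genotype no replicate could be left out, and no alternative brought any of the 33 genes past 2-fold. At 1.5-fold, 1 gene was higher, and at 3-fold none. A pseudocount of 0.1 and median-ratio scaling moved no member by more than 0.0047 on the log2 scale. As deposited the medians by step were -0.229 for the SREBP machinery, -0.003 for mevalonate to farnesyl diphosphate, 0.181 for squalene and lanosterol, -0.018 for lanosterol to cholesterol, 0.206 for sterol transport, -0.241 for acetyl-CoA to palmitate and 0.008 for elongation and desaturation. Under quantile normalization the median log2 fold change was 0.081 over all members, -0.062 for the SREBP machinery, 0.097 for mevalonate to farnesyl diphosphate and 0.112 for elongation and desaturation. Scaled to Actb, which moved the median of well expressed genes from -0.011 to 0.105, the medians were 0.128 over all members, -0.113 for the SREBP machinery, 0.113 for mevalonate to farnesyl diphosphate, 0.297 for squalene and lanosterol, 0.097 for lanosterol to cholesterol, 0.322 for sterol transport, -0.125 for acetyl-CoA to palmitate and 0.124 for elongation and desaturation. With the GC trend removed they were 0.017 for the SREBP machinery, 0.113 for mevalonate to farnesyl diphosphate and 0.008 for sterol transport, so the SREBP median turned sign and that of transport went close to 0. Among genes reaching a log2 value of 8 in each library, which leaves out Abca1, sterol transport was at 0.045. Other genes of the pathway at least 1.5-fold higher numbered 5 both with Actb scaling and with the GC trend removed, against 3. Beyond these constructions the cause was not tested. Depth limits Abca1, Acacb and Ch25h, whose intervals are wide.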
